A study of Mus musculus with 8 samples.

Results

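The genes described here make, regulate and break down the polyamines putrescine, spermidine and spermine. They were chosen by gene symbol as Odc1, Sat1, Srm, Sms, Amd1, Oaz1, Oaz2, Azin1 and Smox, from a pathway picked with earlier results of these data in view. Probes for 8 of the 9 genes were placed, 9 probes in all, among 21779 placed probes with 15096 distinct gene symbols. No placed probe carried the symbol Amd1. The 8 array ratios of each table row served to find the spot that the row came from, not to pick genes by the size or direction of a change.

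Polyamines are small positively charged molecules that bind nucleic acids, and proliferating lymphocytes need them for growth. Ornithine decarboxylase (Odc1) makes putrescine from ornithine. Spermidine synthase (Srm) and spermine synthase (Sms) then add aminopropyl groups, which S-adenosylmethionine decarboxylase (Amd1) supplies. Antizymes (Oaz1, Oaz2) bind ornithine decarboxylase and send it to the proteasome, and the antizyme inhibitor (Azin1) binds antizymes in its place. Spermidine/spermine acetyltransferase (Sat1) starts breakdown and export, and spermine oxidase (Smox) turns spermine back into spermidine.

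The cells were CTL-EN, a mouse T cell line, carrying either the wild-type beta common (beta-c) chain of the GM-CSF receptor or the same chain with a serine-to-glycine change at residue 585 (Ser585Gly). All cells were first kept without factor for 12 h in RPMI with 0.5% CS, as the labels abbreviate it, which gave the 0 h samples. For the 12 h samples, human GM-CSF was then added at 50 ng/mL and the cells were harvested 12 h later. Total RNA was compared on 8 two-colour arrays forming a square with 4 edges, which were 12 h against 0 h in wild type, the same in Ser585Gly, and Ser585Gly against wild type at 0 h and at 12 h. Each edge had 2 arrays of opposite dye orientation, with the 12 h or Ser585Gly RNA in Cy5 on replicate 1 and in Cy3 on replicate 2. No edge held cells kept without GM-CSF for the second 12 h, so GM-CSF and time cannot be told apart, and the introduced receptor chain had no probe. The labels name no separate cultures or clones, so p-values measure the spread between hybridisations only.

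Gene names rest on a print order recovered from the spots, in which 244 wells named empty had a median brightness percentile of 1.33, against 47.2 in the order of the deposited names. Under the deposited order none of the polyamine calls below was made. The 404 pairs of bright probes of 1 gene, which were not used to choose the order, had a Pearson correlation of their 12 h responses in wild type of 0.561 in the recovered order and -0.04 in the deposited order. Brightness was taken at the recovered spots, so the pairs need not be bright in the deposited order and the comparison is not like for like. Arrays had a median foreground of 631 to 946 (Cy5) and 795 to 1105 (Cy3). The correlation between the 2 arrays of an edge, over all placed probes, was 0.515 and 0.509 for the 12 h edges but 0.124 for Ser585Gly against wild type at 0 h and 0.219 at 12 h. Replicate 1 of that 0 h edge correlated with the authors' deposited values at 0.655, against 0.848 to 0.936 for the other arrays. All 7 T cell markers with a probe (Cd3e, Cd3g, Cd3d, Cd247, Thy1, Cd2 and Zap70) were brighter than the 95th percentile of empty wells in all 16 channel readings, as were 11 of 13 markers of other cell types and 68.9% of all placed probes. None of those 13 markers passed the threshold in any comparison (limma, edge means), while 3 to 5 had an unadjusted p under 0.05 in each of the 4 edges and 1 for the difference of the responses. Of all 21779 placed probes, 2605 to 4828 had an unadjusted p under 0.05 in each edge and 1509 for the difference. With the 8 arrays fitted singly, 1 of the 13 markers (Hba-a1) passed in both 12 h comparisons, against 9.46% and 10.5% of all probes. That fit counts the 2 arrays of an edge as independent, although they are read here as a technical dye swap. In RNA from a whole culture, fewer cells of a type and less RNA per cell cannot be told apart.

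The promoter-side sequences of Odc1 and Sat1 are shown because these genes had the 2 largest 12 h changes of the 8 in Ser585Gly (in wild type Azin1 moved more than Sat1), and that of Sms because it held the one match to CACGTG, the E-box that Myc and Max bind. Sequences are from RefSeq on GRCm38.p6, are the 250 bases before an annotated start, and are written 5′ to 3′ on the gene's strand, with CACGTG in capitals. The Odc1 window is chr12:17544623-17544872 on the plus strand, with 80% G or C. It overlaps the annotated gene, which begins at base 17544808, so it reaches less far upstream of the gene than the other windows shown. The Sat1 window is chrX:155216450-155216699 on the minus strand, with 59.6% G or C. The Sms window is chrX:157492288-157492537 on the minus strand, and its match begins at base -196 from the start.
Odc1: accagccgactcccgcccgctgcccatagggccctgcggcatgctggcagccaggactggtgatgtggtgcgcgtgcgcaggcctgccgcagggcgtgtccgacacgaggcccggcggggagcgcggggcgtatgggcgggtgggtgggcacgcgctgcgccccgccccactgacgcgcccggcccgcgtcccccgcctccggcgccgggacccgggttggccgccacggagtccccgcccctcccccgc
Sat1: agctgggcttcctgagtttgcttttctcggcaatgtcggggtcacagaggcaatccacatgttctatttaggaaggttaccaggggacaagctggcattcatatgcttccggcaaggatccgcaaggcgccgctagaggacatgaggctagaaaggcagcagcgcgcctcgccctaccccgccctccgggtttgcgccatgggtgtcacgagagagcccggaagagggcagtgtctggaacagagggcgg
Sms: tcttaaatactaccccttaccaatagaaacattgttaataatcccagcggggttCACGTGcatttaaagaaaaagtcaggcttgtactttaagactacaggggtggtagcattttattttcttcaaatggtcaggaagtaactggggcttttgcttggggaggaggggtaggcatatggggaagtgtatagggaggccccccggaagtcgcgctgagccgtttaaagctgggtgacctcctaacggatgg
CACGTG reads the same on both strands. It was searched in windows from 250 bases before to 50 bases after each start, which existed for 7 of the 9 listed genes (8 windows, 2 of them for Sms), and 1 of the 8 held it. Over all genes, 2349 of 32851 windows (7.15%) held it. No such letters were in the Odc1 or Sat1 window. The first intron of Odc1, where E-boxes are known in the mouse gene, was not analysed here.

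After 12 h of GM-CSF the RNA of Odc1, the enzyme that starts synthesis, was 3.76-fold higher in wild type and 4.23-fold higher in Ser585Gly. The RNA of Azin1, which protects that enzyme, was 2.04-fold and 1.83-fold higher on the brighter of its probes, and that of the breakdown enzyme Sat1 was 1.78-fold and 3.88-fold lower. The dimmer Azin1 probe gave log2 ratios of 0.04 and -0.05 and was not called. In wild type, 2 of 8 polyamine genes rose and 1 fell (adjusted p under 0.05), against 4.91% of all probes called in either direction, 2.85% higher and 2.06% lower. In Ser585Gly, 3 rose and 1 fell, against 6.17% of all probes, 3.62% higher and 2.55% lower. The median log2 ratio of the 8 genes was 0.01 in wild type and 0.23 in Ser585Gly, and that of all probes was -0.01 and 0.01. Among the T cell markers, 2 of 7 fell over the same 12 h, namely Cd3e by 0.84 and 0.90 (adjusted p = 0.019 and 0.0154, limma) and Cd3g by 0.71 and 0.72 (adjusted p = 0.0268 and 0.0239, limma) on the log2 scale in wild type and Ser585Gly. The other markers were not called. Among them Thy1, on its brighter probe, read 0.78 and 0.92 on the wild-type arrays and 0.33 and 0.56 on the Ser585Gly arrays. The median log2 ratio of the 7 markers was -0.19 in wild type and -0.11 in Ser585Gly. The part of these markers in the polyamine results was not tested. The 12 h edges share no array with each other, but both fits use all 4 edges of the square.

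**Figure D1:**
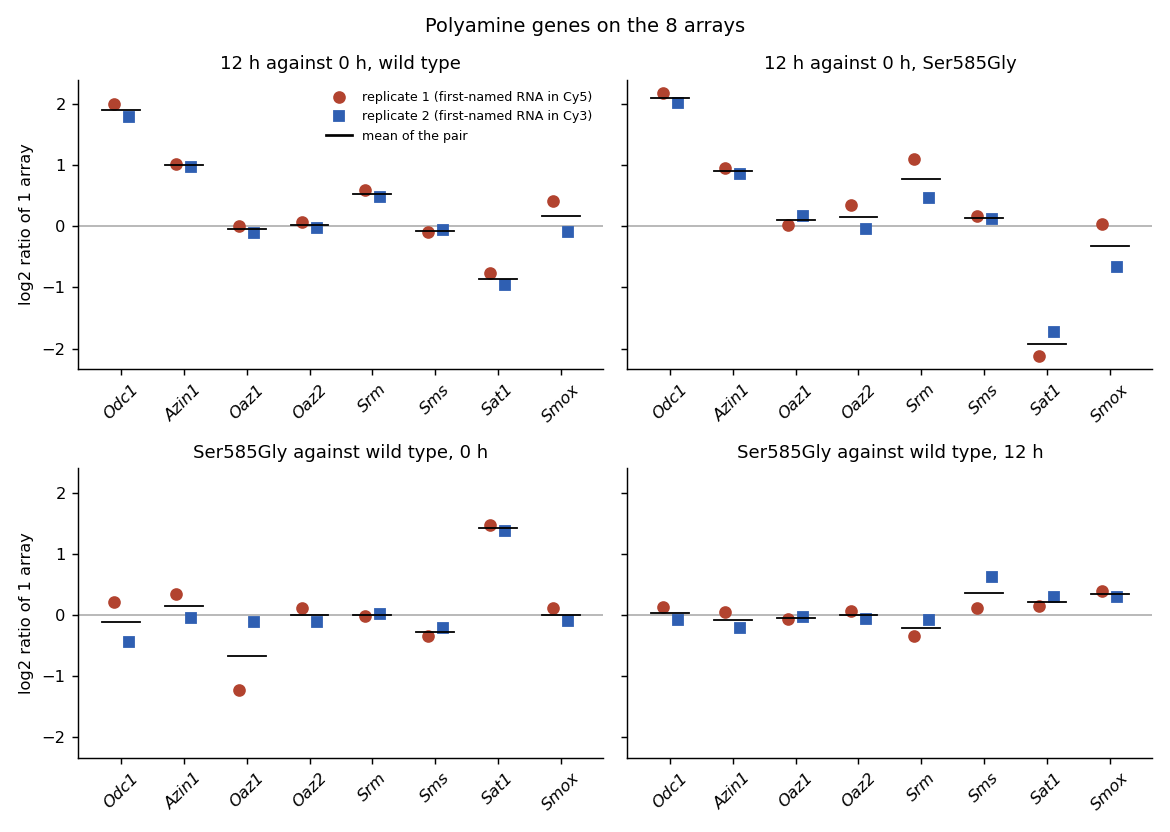
Log2 ratio of the 8 polyamine genes on each of the 8 arrays, turned so that positive means higher at 12 h (top) or in Ser585Gly (bottom). Circles and squares are the 2 dye orientations and bars their mean. Odc1 lies between 1.79 and 2.18 on the 4 arrays of 12 h against 0 h, and Sat1 between -2.12 and -0.76.

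Odc1 gave log2 ratios of 12 h over 0 h of 1.998 and 1.79 on the 2 wild-type arrays and of 2.18 and 2.01 on the 2 Ser585Gly arrays. All 4 arrays put 12 h higher, and the Ser585Gly arrays lay just above the wild-type arrays. On the raw foreground scale, before dye normalisation, the wild-type array with 12 h RNA in Cy5 read 31638 in Cy5 and 6102 in Cy3. Fitted over the square, Odc1 RNA rose by 1.91 ± 0.11 in wild type (SE, 3.76-fold, adjusted p = 0.00205, limma) and by 2.08 ± 0.11 in Ser585Gly (4.23-fold, adjusted p = 0.00342, limma). Between the populations at 0 h the arrays read 0.21 and -0.44, with opposite signs in the 2 dye orientations, and the fitted ratio was -0.13 (adjusted p = 0.541). At 12 h they read 0.14 and -0.09, with a fitted ratio of 0.04 (adjusted p = 0.923). The response in Ser585Gly exceeded that in wild type by 0.17 with a 95% interval of -0.15 to 0.49 (adjusted p = 0.782), so a difference was not shown. The Odc1 probe was at the 98.9th percentile of placed probes.

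Azin1, whose product resembles ornithine decarboxylase but has no enzyme activity, had 2 probes. The brighter, at the 96.7th percentile, read 1.02 and 0.97 on the wild-type 12 h arrays and 0.95 and 0.86 on the Ser585Gly arrays. All 4 arrays put 12 h higher, with the wild-type arrays just above the others, and the probe rose by 1.03 ± 0.12 in wild type (2.04-fold, adjusted p = 0.0108) and by 0.87 ± 0.12 in Ser585Gly (1.83-fold, adjusted p = 0.017). The dimmer probe, at the 59.1th percentile and drawn from another transcript record, gave 0.04 (adjusted p = 0.907) and -0.05 (adjusted p = 0.880). The probes therefore disagree, and which transcripts each one reads was not tested. The 2 populations differed by 0.11 at 0 h and by -0.05 at 12 h on the brighter probe (adjusted p = 0.613 and 0.915).

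The antizymes showed no call. Oaz1, at the 97.6th percentile of brightness, read 0.01 and -0.11 on the wild-type 12 h arrays and 0.03 and 0.17 on the Ser585Gly arrays. Oaz2 read 0.08 and -0.03 in wild type and 0.35 and -0.04 in Ser585Gly. The fitted 12 h ratios were -0.17 and 0.22 for Oaz1 (adjusted p = 0.547 and 0.431) and 0.05 and 0.12 for Oaz2 (adjusted p = 0.834 and 0.608). In Ser585Gly against wild type at 0 h, Oaz1 read -1.22 on replicate 1 and -0.12 on replicate 2, a spread larger than any fitted value of this gene. Replicate 1 was also the array with the lowest correlation with the deposited values. The fitted ratio was -0.55 ± 0.14 (adjusted p = 0.102), -0.16 without replicate 1 of that edge, and 0.00 with print-tip loess. Antizyme protein is set by a ribosomal frameshift that polyamines promote, which RNA levels do not report.

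Srm, which makes spermidine, read 0.59 and 0.47 on the wild-type 12 h arrays and 1.10 and 0.45 on the Ser585Gly arrays. Replicate 1 of the Ser585Gly edge stood above the other 3 arrays. The fitted ratio was 0.64 ± 0.14 in wild type (1.56-fold, adjusted p = 0.055) and 0.66 ± 0.14 in Ser585Gly (1.58-fold, adjusted p = 0.0471), and these nearly equal estimates fell on either side of the threshold. With the 8 arrays fitted singly both passed (adjusted p = 0.0314 and 0.0265), where 9.46% and 10.5% of all probes were called. In Ser585Gly the call was lost in 5 of 19 alternatives, among them leaving out replicate 1 of that edge, which gave 0.38 (adjusted p = 0.278). Sms, which makes spermine, read -0.09 and -0.06 in wild type and 0.17 and 0.12 in Ser585Gly. Its fitted ratios were -0.18 and 0.25 (adjusted p = 0.501 and 0.352). Of the 9 probes, that of Sms was the one whose spot was not the nearest by its deposited values. Smox was too dim to measure, at the 1.86th percentile and above the empty wells in 5 of 16 readings, and its ratios are not described further.

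Sat1 was the polyamine gene that differed between the populations. In Ser585Gly against wild type at 0 h it read 1.47 and 1.36 on the 2 arrays. Without dye normalisation, the array with Ser585Gly RNA in Cy5 read 6111 in Cy5 and 2047 in Cy3, and the array with it in Cy3 read 5525 in Cy3 and 2195 in Cy5. Both orientations thus put Ser585Gly higher. The fitted ratio was 1.38 ± 0.12 (2.61-fold higher, adjusted p = 0.0104, limma). In that comparison 1 of 8 polyamine genes was called, against 1.27% of all probes (0.505% higher and 0.767% lower). Of the probes called, 39.7% were higher in Ser585Gly, against 49.8% with print-tip loess and 51.4% on the authors' deposited values. At 12 h the arrays read 0.14 and 0.29 and the fitted ratio was 0.25 with a 95% interval of -0.03 to 0.53 (adjusted p = 0.472). No polyamine gene passed at 12 h, against 0.712% of all probes called. None had an unadjusted p under 0.05 (limma), against 2605 of 21779 probes. On the authors' deposited values Sat1 alone passed at 12 h, at 0.36 (adjusted p = 0.0444).

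Over the 12 h, Sat1 read -0.76 and -0.97 on the wild-type arrays and -2.12 and -1.73 on the Ser585Gly arrays. Both Ser585Gly arrays lay below both wild-type arrays. That order was not counted over all probes, so it is not read as a difference. The 12 h arrays of Odc1, Azin1, Sms and Oaz1 did not overlap between the populations either, and no difference of their responses was called. Sat1 fell by 0.83 ± 0.12 in wild type (1.78-fold lower, adjusted p = 0.0198) and by 1.96 ± 0.12 in Ser585Gly (3.88-fold lower, adjusted p = 0.00342). Without replicate 2 of the wild-type 12 h edge, its wild-type ratio was -0.70 and did not pass (adjusted p = 0.075). Set against wild type at 0 h, the fitted level of Sat1 was 1.38 in Ser585Gly at 0 h, -0.83 in wild type at 12 h and -0.58 in Ser585Gly at 12 h. The 12 h levels of the populations thus lay close together, and their 0 h levels lay apart.

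The difference of the 12 h responses of Sat1, Ser585Gly minus wild type, was -1.13 ± 0.13 with a 95% interval of -1.46 to -0.80. The 4 arrays over time alone gave -1.06 and the 4 arrays between the populations alone gave -1.20. These are separate hybridisations of the same 4 RNAs, as the design is read here. Its unadjusted p of 0.000126 ranked 8 of 21779 probes, and the adjusted p was 0.305. In that fit 0 probes passed the threshold and 1509 had an unadjusted p under 0.05, among them 2 of the 8 polyamine genes (Sat1 and Sms). With the 8 arrays fitted singly, 12 probes passed (0.0551%), Sat1 among them (adjusted p = 0.0362). Over all alternatives but the deposited name order, Sat1 passed in 3 of 19, with values from -1.23 to -1.04 and adjusted p from 0.00661 to 0.914. Sms had a difference of 0.43 with a 95% interval of 0.05 to 0.81 (adjusted p = 0.7), made up of 0.21 from the arrays over time and 0.64 from the arrays between the populations.

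**Figure D2:**
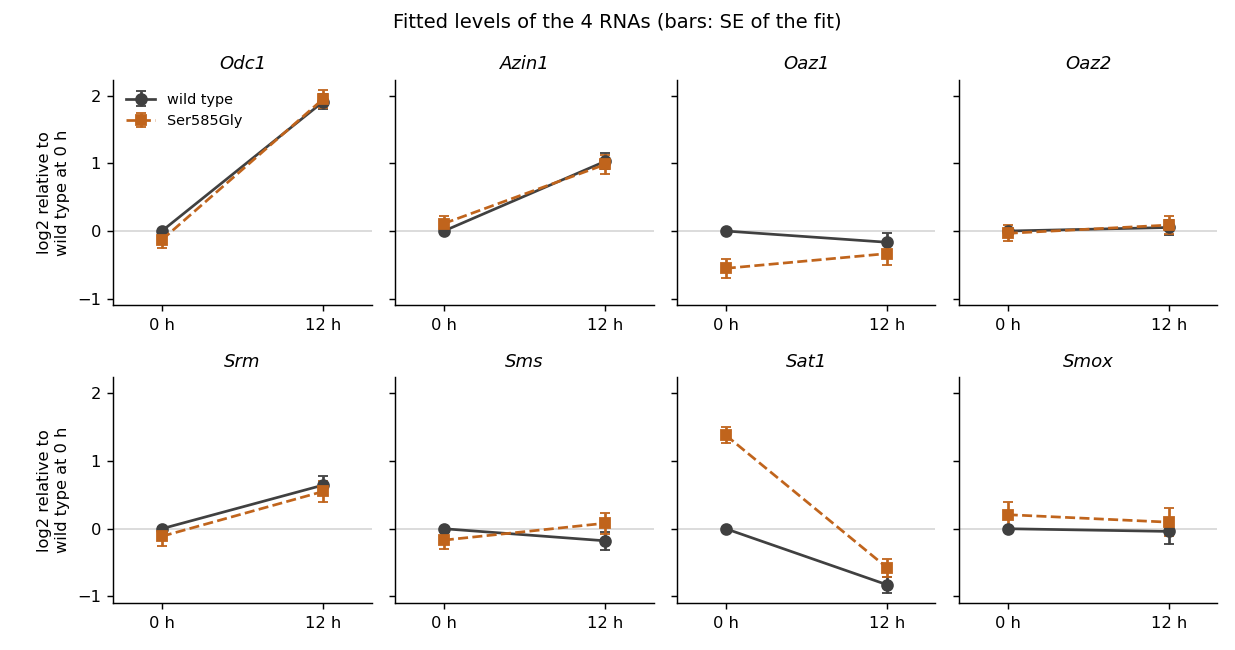
Fitted log2 level of each polyamine gene in the 4 RNAs, relative to wild type at 0 h, with the SE of the fit as bars (the wild-type 0 h point is 0 by construction). Odc1 and Azin1 (brighter probe) rise alike in both populations, and Sat1 starts 1.38 higher in Ser585Gly and ends at -0.83 in wild type and -0.58 in Ser585Gly.

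**Figure D3:**
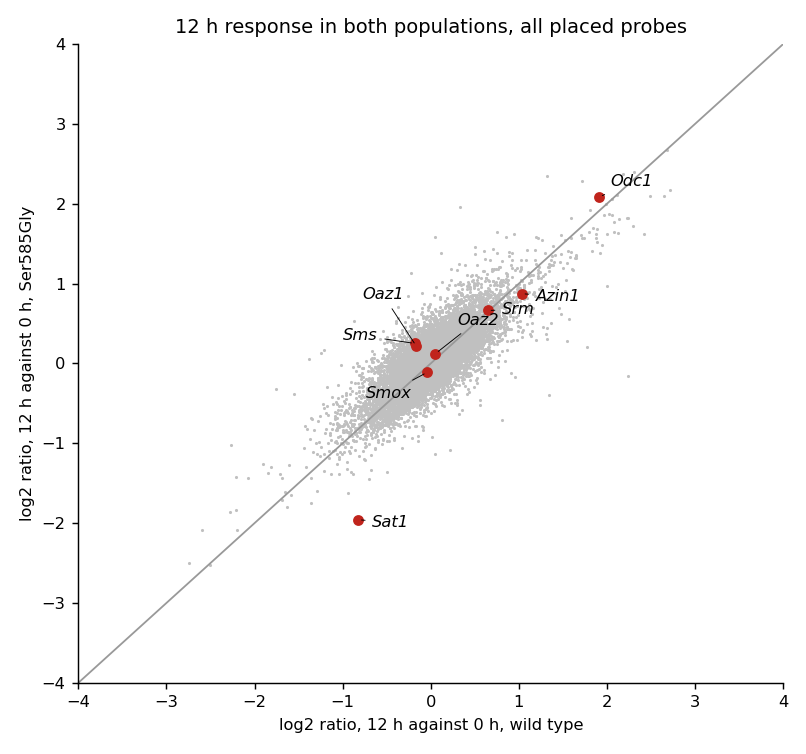
Log2 ratio of 12 h against 0 h in wild type (horizontal) and in Ser585Gly (vertical) for all 21779 placed probes (grey) and the 8 polyamine genes (red); the line marks equal responses. Odc1 lies near the line at 1.91 and 2.08, and Sat1 lies below it at -0.83 and -1.96.

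Genes around the pathway were taken from lists that were fixed by name. Of 6 other polyamine enzymes and regulators with a probe (Amd2, Agmat, Aoc1, Satl1, Sat2 and Oaz3), none passed in either 12 h comparison (limma, edge means). In each, 1 had an unadjusted p under 0.05, against 4828 of 21779 probes in wild type and 4814 in Ser585Gly. That gene was Amd2, a copy of the S-adenosylmethionine decarboxylase gene, which read 0.29 and 0.36 on the wild-type arrays and 0.53 and 0.48 on the Ser585Gly arrays. All 4 values were positive. The fitted ratios were 0.31 (adjusted p = 0.191) and 0.52 (adjusted p = 0.0535). The latter passed with the arrays fitted singly (adjusted p = 0.0172), where 10.5% of all probes were called. RefSeq lists Amd1 as a synonym of Amd2, and whether the probe tells the copies apart was not tested.

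Supply of substrate and uptake came next. Of 5 transport genes, Slc3a2, the heavy chain of amino acid exchangers that has also been linked to polyamine export, rose by 1.64 ± 0.12 in wild type and by 1.32 ± 0.12 in Ser585Gly (adjusted p = 0.00312 and 0.00691). The polyamine pumps Atp13a2 and Atp13a4 and the organic cation transporter Slc22a2 lay between -0.11 and 0.13 without a call, and Slc18b1, a vesicular polyamine transporter, had -0.52 and -0.47 (adjusted p = 0.0737 and 0.0883), which passed with the arrays fitted singly (adjusted p = 0.0378 and 0.04998). Of 11 genes of arginine and ornithine supply, 1 rose in each population, against 2.85% of all probes higher in wild type and 3.62% in Ser585Gly. It was Slc7a1, the cationic amino acid transporter that brings in arginine, with 1.17 ± 0.14 and 0.88 ± 0.14 (adjusted p = 0.0116 and 0.0224). The arginases, which make ornithine from arginine, were not called; Arg1 had -0.17 in wild type and -0.16 in Ser585Gly, and Arg2 had 0.11 and 0.46 (adjusted p = 0.626 and 0.0771). Aldh18a1, which makes ornithine precursors from glutamate, had 0.54 and 0.35 (adjusted p = 0.0885 and 0.210), and Ass1, Asl, Otc, Oat, Slc7a2, Slc7a3 and Slc25a15 lay between -0.49 and 0.29 without a call. With the arrays fitted singly, Arg2 passed in Ser585Gly (adjusted p = 0.0326, limma) and Aldh18a1 in wild type (adjusted p = 0.0423, limma). In that fit, which Slc18b1 also passed, 9.46% of all probes were called in wild type and 10.5% in Ser585Gly.

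Downstream of spermidine, Eif5a, the translation factor that carries the spermidine-derived residue hypusine, rose by 0.66 ± 0.11 in wild type and by 0.58 ± 0.11 in Ser585Gly (adjusted p = 0.033 and 0.0414). Dohh, the second enzyme of hypusine formation, had -0.02 and -0.32 without a call. Of 8 genes of the methionine cycle and salvage, which recycle the by-product of polyamine synthesis, 2 rose and 1 fell in each population, against 2.85% of all probes higher and 2.06% lower in wild type and 3.62% and 2.55% in Ser585Gly. Got1, an aminotransferase, rose by 0.74 and 0.71 (adjusted p = 0.0263 and 0.0266), and Adi1, a late salvage enzyme, fell by 0.59 and 0.58 on the log2 scale (adjusted p = 0.0453 and 0.0419). Ahcy, which clears S-adenosylhomocysteine, passed in wild type at 0.77 and had 0.47 in Ser585Gly (adjusted p = 0.0254 and 0.0813). Mtap, the first salvage enzyme, had 0.55 in wild type and passed in Ser585Gly at 0.84 (adjusted p = 0.0714 and 0.0233). For both genes the difference of the responses did not pass (-0.30 for Ahcy, adjusted p = 0.723, and 0.29 for Mtap, adjusted p = 0.737). Mat2b, Mri1, Apip and Enoph1 were not called. With the arrays fitted singly, Mtap passed in wild type (adjusted p = 0.0212) and Enoph1, at 0.46, in Ser585Gly (adjusted p = 0.0211), against 9.46% and 10.5% of all probes. The median ratios of the lists lay between -0.03 and 0.32 in wild type and between -0.03 and 0.31 in Ser585Gly. None of the genes in these 5 lists passed between the populations at either time or for the difference of the responses in the fit of edge means; Mtap, at 0.66 between the populations at 12 h, passed there with the arrays fitted singly (adjusted p = 0.029), as did 1.72% of all probes.

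**Figure D4:**
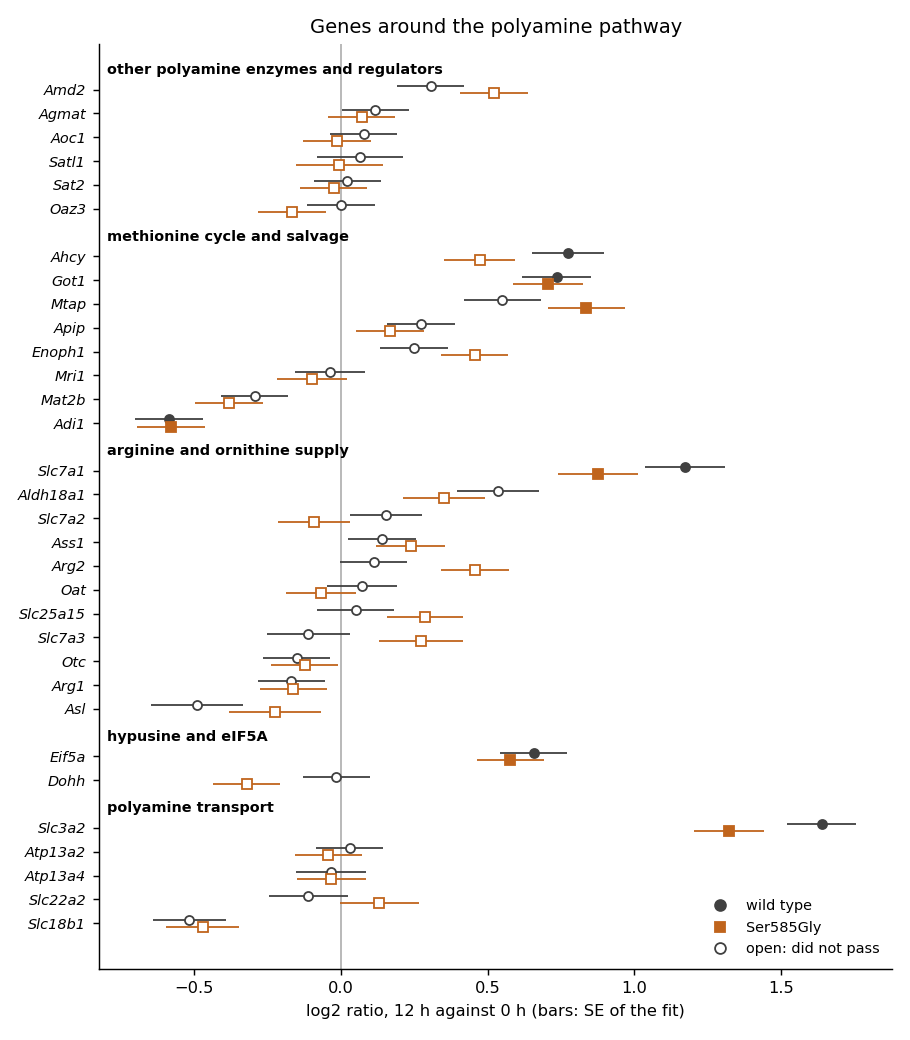
Log2 ratio of 12 h against 0 h for the measured genes of 5 lists around the polyamine pathway, in wild type (circles) and Ser585Gly (squares), with the SE of the fit as bars; filled symbols passed at an adjusted p under 0.05. Slc3a2 at 1.64 and 1.32 and Slc7a1 at 1.17 and 0.88 lie farthest to the right.

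Factors of the Myc network, members of which are known to act at E-boxes of Odc1, were read on the same arrays. Mycn rose by 2.31 ± 0.14 in wild type and by 2.40 ± 0.14 in Ser585Gly (adjusted p = 0.00205 and 0.00342). Myc had 0.27 in wild type (adjusted p = 0.272) and rose by 0.67 in Ser585Gly (adjusted p = 0.034), from a level at 0 h that was lower in Ser585Gly than in wild type, with a log2 ratio of -1.18 (adjusted p = 0.0171). At 12 h, Myc was still lower in Ser585Gly on both arrays between the populations, which read -0.98 and -0.70. The proteins of Mxd4 and Mxi1 compete with Myc for Max. Mxd4 fell by 2.60 in wild type and by 2.09 in Ser585Gly (adjusted p = 0.00442 and 0.00863), and Mxi1 fell by 1.02 and 0.99 (adjusted p = 0.0439 and 0.0423). On the 12 h arrays alone, Mxd4 read -2.32 and -2.37 in wild type and -2.23 and -2.45 in Ser585Gly, alike in both. Mxi1 read -0.71 and -0.87 in wild type and lower, at -1.33 and -1.13, in Ser585Gly. The fitted values also draw on the arrays between the populations and do not follow these patterns. Max had fitted ratios of 0.27 and 0.44 (adjusted p = 0.236 and 0.0883). The latter passed with the arrays fitted singly (adjusted p = 0.0355), where 10.5% of all probes were called. Their part in the level of Odc1 was not tested.

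The genes nearest in pattern were named by Euclidean distance over the 4 edge means among 8690 genes of above-median brightness. Nearest to Odc1 were Slc7a5, the light chain that pairs with Slc3a2 (distance 0.166), Igkv1-99 (0.346), Il2ra, the interleukin-2 receptor alpha chain (0.389), Hemk1 (0.474) and Mycn (0.616). Slc7a5 read 1.96 and 2.02 on the 12 h edges and -0.05 and -0.09 between the populations. Nearest to Sat1 were Ccng2, a cyclin of resting cells (0.800), Anxa2, a membrane-binding protein (0.806), Gbe1, a glycogen enzyme (0.836), Kif13b, a kinesin (0.927), and Sash3, a lymphocyte adaptor (1.02). Distances around Sat1 were larger than around Odc1. Ccng2 fell less than Sat1 in both populations, at -0.50 and -1.65, and read 0.82 between the populations at 0 h and 0.50 at 12 h, where Sat1 had 1.42 and 0.22.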

How the data were processed

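Per the file headers, the scanner values were intensities of spots and of their local background in Cy5 and Cy3; how the scans were quantified is not stated. The authors' deposited value table held log2 ratios (Cy5/Cy3), with the same median absolute value (0.140) on every array, and the submitters' processing notes name limma without a version. The scanner files carry no probe names. Rows of the deposited table were placed on the 23040 spots per array by their 8 ratios, and 90.3% of 21779 placed probes were nearest to their spot. Names were then moved from a 48-pin to a 24-pin print order. In all, 16644 probes had 1 symbol, 137 had several and 4998 had none; symbols were updated by gene identifier for 15972, by accession for 6, and kept for 666. The precision is limited by the number of arrays.

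Normexp background correction used an offset of 50, arrays were normalised by loess (span 0.3, no weight on controls), and dye swaps were turned and averaged. The labels name no separate extracts, so each swap was read as technical. limma 3.58.1 in R 4.3.3 fitted mutation, time and their interaction to the 4 edge means (1 residual and 5.25 prior degrees of freedom). The fit was also run on simulated data with errors independent between arrays. That setting covers neither correlation within an edge nor a poor array. A second fit took the 8 arrays singly with a dye term. It counted both arrays of an edge as independent, although each swap was read as technical. Tests were two-sided, with Benjamini-Hochberg adjustment over all placed probes and a threshold of 0.05; errors are standard errors of the fit. A gene was read on its brightest probe. All members and list genes with a probe were named, with 5 nearest genes for Odc1 and Sat1. The members and lists were chosen with earlier results of these data known, so the responses of Odc1 and Sat1 are not independent support.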

Additional observations from a re-analysis of the deposited data

Results flagged for a closer look

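The 12 h response of Sat1 differed between the populations by -1.13 on the log2 scale (Ser585Gly minus wild type). It was singled out because the test of that difference passed with the 8 arrays fitted singly (adjusted p = 0.0362, limma), although not in the fit of edge means (adjusted p = 0.305, limma). The fit of single arrays counts both arrays of an edge as independent, although each swap was read as technical. The direction was the same in the arrays over time (-1.06) and in the arrays between the populations (-1.20). As the design is read here, both sets compare the same RNAs. They therefore repeat the hybridisation only and are not separate support. The labels name no separate cultures, so a difference between single cultures cannot be told apart from a difference between the receptor chains.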

How the results depend on the processing

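Only hybridisation spread is measured, the dye swaps of the edges between the populations correlate weakly, and every gene name rests on the recovered print order. In the order of the deposited names, 0 polyamine genes passed in any comparison; Odc1 then had 12 h ratios of -0.18 in wild type and -0.11 in Ser585Gly, Sat1 had 0.24 and 0.23 and -0.19 between the populations at 0 h, and Azin1 had -0.10 in Ser585Gly. The other probe of Azin1 gave -0.048 there. Over the other 19 alternatives the calls of Odc1 at 12 h and of Sat1 in Ser585Gly at 12 h and between the populations at 0 h held, with Odc1 at 1.63 to 2.03 in wild type and 1.60 to 2.16 in Ser585Gly, and Sat1 at -2.11 to -1.84 and 1.29 to 1.56. The 12 h call of Srm in wild type, missed at an adjusted p of 0.055, was made in 12 of 19 alternatives. Oaz1 passed at 0 h with edge as a random block (adjusted p = 0.0375) and with median centring (adjusted p = 0.026). The causes were not tested.

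The numbers of probes called were less stable than the polyamine calls. For 12 h against 0 h in wild type, Ser585Gly, and between the populations at 0 h and at 12 h in turn, they were 1069, 1344, 277 and 155. With the 8 arrays fitted singly they were 2061, 2277, 886 and 374, and with edge as a random block 4183, 4306, 3385 and 1133. With a normexp offset of 10 they were 429, 570, 93 and 67, with print-tip loess 2532, 2797, 783 and 393, with median centring 2177, 2443, 1906 and 599, and on the deposited values 3111, 3120, 1503 and 1292. A trended prior gave 1717 in wild type, and 820 and 297 between the populations. No background correction gave 697 and 254 there, and leaving out the dimmest 25% of probes gave 572 at 0 h. For the difference of the responses, where the fit of edge means called 0, these were 12 (arrays singly), 35 (random block), 44 (median centring), 2 (deposited values) and 1 (trended prior). The number of polyamine genes called changed by over 1.5 times in the following cases: 2 at 0 h with the random block and with median centring, 1 at 12 h on the deposited values, and 1 for the difference of the responses with arrays singly, the random block and median centring.

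Leaving out 1 array at a time gave 411 to 3302 probes in wild type, 269 to 3430 in Ser585Gly, 110 to 637 at 0 h, 68 to 627 at 12 h and 0 to 5 for the difference of the responses. The lowest came without replicate 2 of the wild-type 12 h edge, replicate 1 of the Ser585Gly 12 h edge, replicate 2 of the 0 h edge and replicate 1 of the 12 h edge between the populations. The polyamine genes called then numbered 2 to 4, 3 to 4, 1, 0 and 0. No paired analysis was possible because the replicate numbers follow the dye orientation, the labels tie them to no shared culture, and each swap was read as technical and averaged.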
